A study of Homo sapiens with 12 samples.

Results

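The subject is 10 genes that write or erase methyl groups on histone lysines: 4 methyltransferase genes of the KMT2 family (KMT2A, KMT2B, KMT2C and KMT2D) and 6 demethylase genes (KDM4A, KDM4B, KDM4C, KDM5A, KDM5B and KDM6B). They were taken by symbol from the 18950 genes of the deposited table, and each matched 1 row. The set was chosen by family and partly by 2 measured values, the sort difference of KMT2C in DU145 and that of KDM4A in PC3, which are therefore described without a test. RNA was taken from the established prostate cancer lines DU145 and PC3, grown in DMEM with 10% FBS. Each line was sorted by its GFP signal: the brightest 10% of cells, labelled GFP+ and here called GFP high, are the cells the labels describe as active in Wnt/β-catenin signaling, and the dimmest 10%, labelled GFP- and here called GFP low, as inactive. No drug or genetic treatment is named, and the construct behind the GFP signal is not described. Each of the 4 groups had 3 libraries. The labels do not say whether these are separate cultures or sorts of a line, and the p-values cover the spread among these libraries alone, which may be technical.

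Methyl groups on histone H3 mark the state of chromatin. KMT2 proteins place them on H3K4, KMT2A and KMT2B mainly at promoters and KMT2C and KMT2D mainly at enhancers, each within a complex that holds WDR5, RBBP5, ASH2L and DPY30. Demethylases of the JmjC type remove them: KDM5A and KDM5B act on H3K4, KDM4A, KDM4B and KDM4C on H3K9 and H3K36, and KDM6B on H3K27. Members of the KMT2 family are recurrently mutated in cancers, prostate cancer included.

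The libraries held 13453614 to 21528810 estimated counts. Levels are in CPM, the count relative to a scaled library total, as deposited on a log2 scale with an offset of 0.5 counts, and errors beside levels are SD of 3 libraries. A count of 0 allowed up to 0.233 CPM in the shallowest library, which covers counting error only. DU145 GFP high replicate 3 stood apart from the other libraries of its group, as did replicates 2 and 3 of PC3 GFP low from each other. Some of the calls that turn on them are named with the results. LEF1, a Wnt target used as a check of the sorts, was higher in GFP high cells of DU145 (2.21 ± 0.30 against 0.642 ± 0.265 CPM, limma adjusted p = 0.00509) and of PC3 (4.41 ± 0.64 against 1.43 ± 0.44 CPM, limma adjusted p = 0.0106; 0.0557 without PC3 GFP high replicate 1). The LEF1 call was also lost in DU145 without GFP high replicates 1 and 2 (log2 fold change 2.03, adjusted p = 0.115) and in PC3 without GFP low replicates 2 and 3 (1.40, adjusted p = 0.181), where the single library left was assumed to vary like the others. AXIN2, with 25 to 51 estimated counts per group, lay below the expression minimum and was not tested. Its levels in GFP high and low were 1.03 ± 0.49 and 0.57 ± 0.35 CPM in DU145. In PC3 they were 0.84 ± 0.22 and 0.73 ± 0.41 CPM, and the libraries overlapped in both lines.

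The labelled cell type was checked by marker genes. Of 5 epithelial markers, KRT8 and KRT18 carried the summed level in DU145, and KRT18 nearly all of it in PC3. The sum was 2881 to 3589 CPM in DU145 GFP high, 4421 to 4891 CPM in DU145 GFP low and 362 to 514 CPM in PC3. KRT8 itself had means of 1753 (GFP high) and 2755 CPM (GFP low) in DU145, against 18.1 and 26.1 CPM in PC3. KRT19, EPCAM and CDH1 had at most 16 estimated counts in any group, and the prostate luminal markers KLK3 and TMPRSS2 at most 1. Such low values of epithelial markers go against the label of epithelial lines, and whether they bear on the identity of the cells or the completeness of the table was not tested. The summed leukocyte markers (3 of 4 in the table) were 24.8 to 31.1 CPM in DU145 GFP high, 38.5 to 42.8 CPM in DU145 GFP low and 4.46 to 7.20 CPM in PC3, nearly all of it CD68, while the defining leukocyte gene PTPRC had at most 2 counts per group. Summed fibroblast and endothelial markers reached at most 1.87 and 1.19 CPM in any library. The part of the keratin and CD68 differences in the results was not tested.

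All 10 members passed the expression minimum of 1 CPM in at least 3 of the 12 libraries. Per kilobase of annotated exon, with all exons of a gene merged, the highest levels were those of KDM4A, KMT2D and KMT2B in every group. The order depended on the length used. Per kilobase of the longest transcript, KMT2A lay above KMT2B in PC3 GFP high (13.55 against 9.87) and GFP low (11.92 against 8.85). The values below are by merged exon length unless stated. In DU145 GFP low, KMT2D measured 19.6 ± 0.4 CPM per kb, KDM4A 17.95 ± 0.81 and KMT2B 15.5 ± 1.3. In PC3 GFP low, KDM4A led with 49.9 ± 3.3 CPM per kb, followed by KMT2D with 11.1 ± 0.9 and KMT2B with 7.29 ± 0.31. KMT2A and KDM5A lay next to each other in all 4 groups, between 4.92 and 7.20 CPM per kb, and did not differ beyond their spread. By the longest transcript they stood apart, with 12.42 against 7.22 CPM per kb in DU145 GFP high. KDM4C and KDM5B were the weakest members in DU145 GFP low (1.015 ± 0.028 and 1.45 ± 0.06 CPM per kb) and in PC3 GFP low (1.16 ± 0.16 and 0.892 ± 0.112). By the longest transcript, KMT2C (2.06 CPM per kb) was the weakest in DU145 GFP low, below KDM4C (2.25). By merged exon length, KMT2C held rank 4 in DU145 GFP high (7.33 ± 1.41 CPM per kb) and rank 8 in DU145 GFP low (1.73 ± 0.06).

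**Figure D1:**
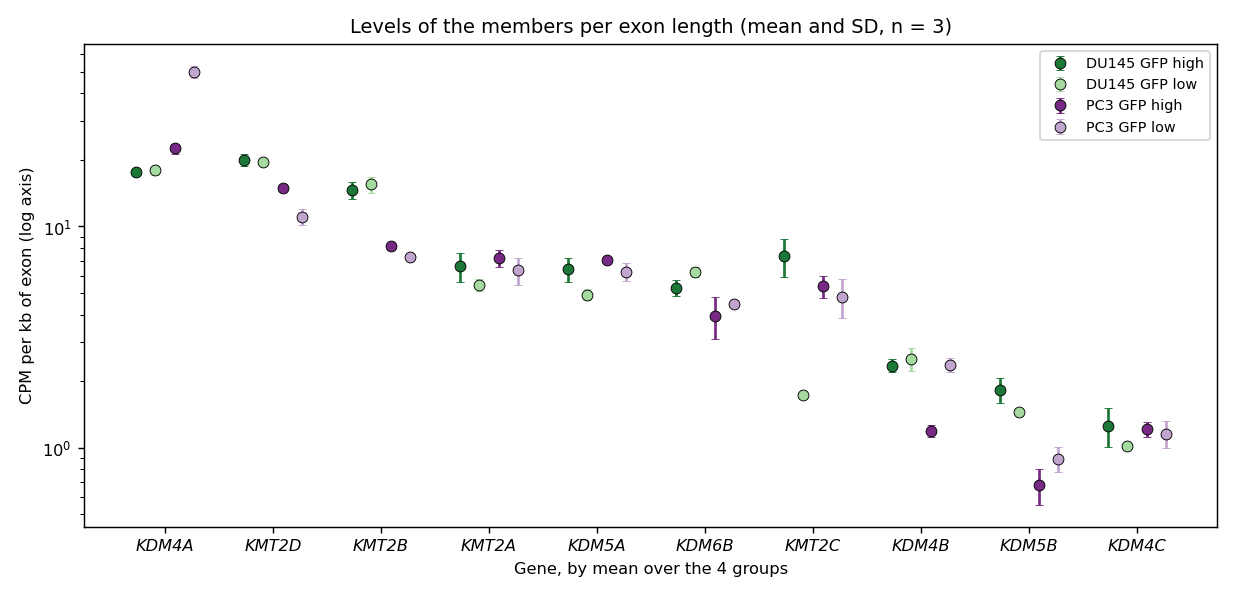
Level per kilobase of exon (CPM per kb, logarithmic axis) of each member in the 4 groups; points are means of 3 libraries and error bars SD. KDM4A, KMT2D and KMT2B lie at the top, KDM4A reaching 49.9 CPM per kb in PC3 GFP low, while KMT2C in DU145 GFP low falls to 1.73 CPM per kb.

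KMT2C (ENSG00000055609, chromosome 7, 152134922 to 152436005, minus strand, GENCODE 29 on GRCh38) encodes a large H3K4 methyltransferase of enhancers. Its level was 165, 163 and 115 CPM in the 3 libraries of DU145 GFP high and 33.4, 35.0 and 35.8 CPM in those of DU145 GFP low. The groups did not overlap, and replicate 3 was the lowest of the GFP high libraries. These levels rest on 6503 and 1634 estimated counts and correspond to a 4.19-fold higher level in GFP high (log2 fold change 2.07). Without replicate 3 of GFP high the log2 fold change was 2.24, and with replicate 3 as the only GFP high library 1.72, the highest and lowest of the 27 alternative analyses. In PC3, KMT2C measured 110, 94.7 and 120 CPM (GFP high) and 97.5, 77.1 and 116 CPM (GFP low). These PC3 groups overlapped (limma, log2 fold change 0.17 ± 0.16, SE, adjusted p = 0.578), and both means lay between those of the DU145 groups. Replicate 3 of each PC3 group (120 and 116 CPM) lay above DU145 GFP high replicate 3 (115 CPM). In bulk samples, fewer cells that express a gene and less RNA per cell cannot be told apart, which holds for every difference given here. Parts of KMT2C have copies at the BAGE loci; BAGE2, named for that reason, had at most 1 estimated count in any group. The pseudogene FABP5P3, annotated across the start of KMT2C on the opposite strand and named for that overlap, had 4 counts in DU145 GFP high and 0 in the other groups.

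**Figure D2:**
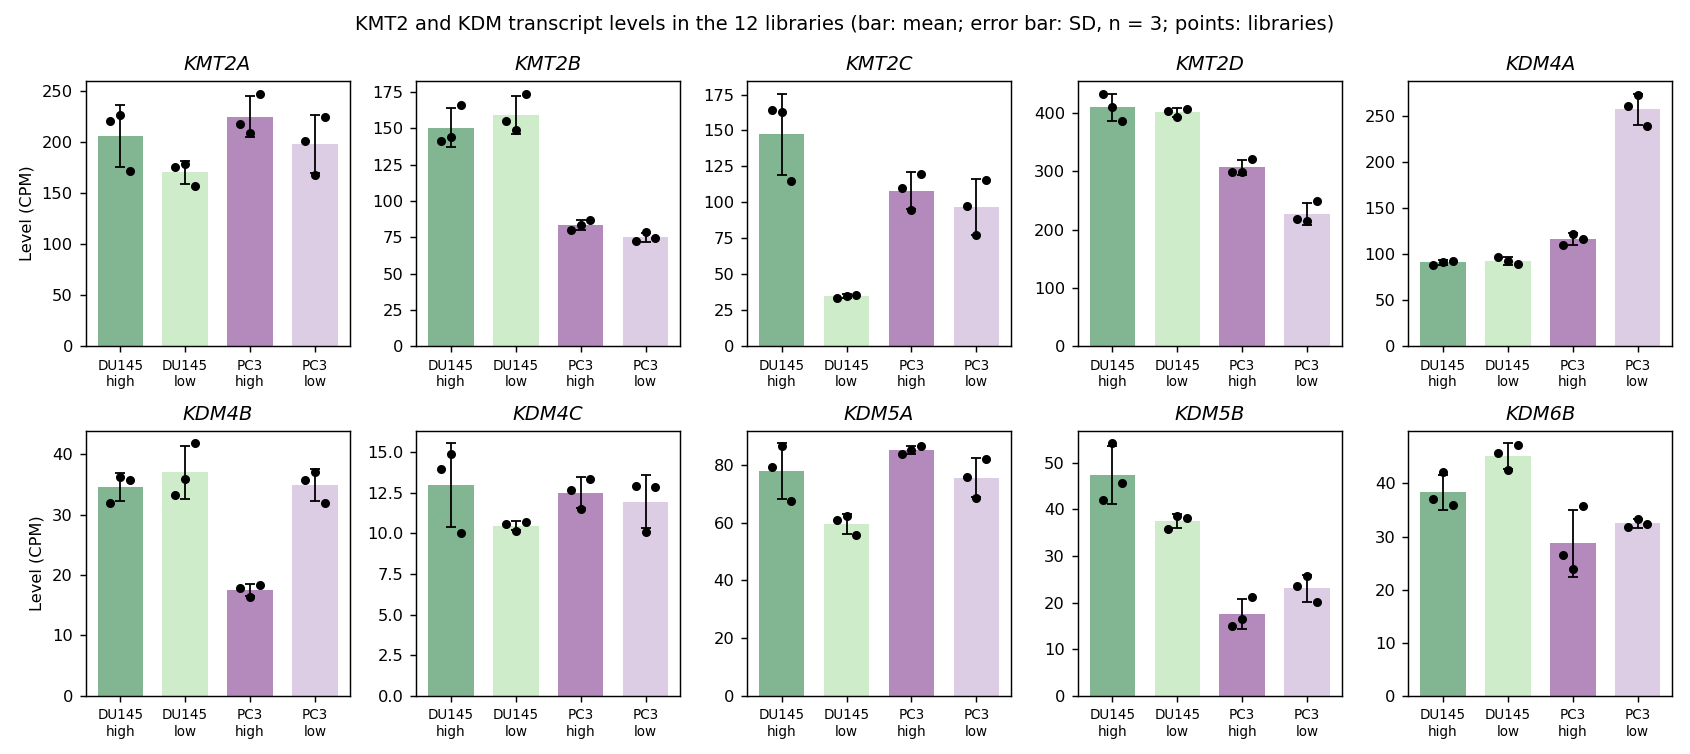
Levels (CPM) of the 10 members in the 4 groups; bars are means, error bars SD of 3 libraries and points the single libraries. KMT2C drops to 34.7 CPM in DU145 GFP low, KDM4A reaches 258 CPM in PC3 GFP low, and KDM4B falls to 17.55 CPM in PC3 GFP high.

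KMT2D (chromosome 12, 49018975 to 49059774), the close relative of KMT2C, differed in the other line. In PC3 GFP high its level was 299, 300 and 321 CPM, and in PC3 GFP low 217, 214 and 249.1 CPM. The groups did not overlap, and KMT2D rose 1.35-fold (limma, log2 fold change 0.44 ± 0.07, adjusted p = 0.0019). The call held in all 27 alternatives, with a highest adjusted p of 0.0162. In DU145, its libraries lay at 433, 410 and 386 CPM (GFP high) and 404, 393 and 407 CPM (GFP low), with a log2 fold change of 0.03 ± 0.07 (limma adjusted p = 0.79). The sort effect on KMT2D was thus smaller in DU145 than in PC3 (difference of log2 fold changes -0.41 ± 0.10, limma adjusted p = 0.0187). This difference no longer passed after quantile normalization (adjusted p = 0.318) or without PC3 GFP low replicate 1 (0.0556), and the adjusted p ranged from 0.000394 to 0.318 over the alternatives. KMT2D counts were whole numbers in 9 of the 12 libraries.

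KMT2A and KMT2B, the promoter-bound members, did not pass the test between sorts. KMT2A (chromosome 11, 118436464 to 118526832), the gene rearranged in mixed-lineage leukemia, measured 221, 227 and 172 CPM in DU145 GFP high and 175, 179 and 158 CPM in DU145 GFP low. The groups overlapped through GFP high replicate 3 (limma, log2 fold change 0.27 ± 0.12, adjusted p = 0.11). Without that library the adjusted p was 0.0128. In PC3, KMT2A lay between 168 and 248 CPM in the 6 libraries (0.19 ± 0.12, limma adjusted p = 0.393). KMT2B (chromosome 19, 35718019 to 35738878) had a log2 fold change of -0.08 ± 0.08 in DU145 (limma adjusted p = 0.463). In PC3 the KMT2B libraries did not overlap, with 80.2, 83.6 and 86.9 CPM for GFP high and 72.1, 78.4 and 74.3 CPM for GFP low, but the difference did not pass (0.16 ± 0.08, limma adjusted p = 0.295). The difference between the sort effects on KMT2B was -0.24 ± 0.12 (limma adjusted p = 0.17). It was -0.31 without DU145 GFP high replicate 3 (limma adjusted p = 0.047).

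Of the H3K4 demethylase genes, KDM5A (chromosome 12, 280129 to 389454) rose in DU145. Its level was 79.2, 86.6 and 67.3 CPM in DU145 GFP high and 60.8, 62.1 and 55.5 CPM in GFP low. The groups did not overlap (log2 fold change 0.38 ± 0.10, limma adjusted p = 0.0171). KDM5A no longer passed when DU145 GFP high replicate 1 (adjusted p = 0.0682), GFP high replicate 2 (0.0798) or GFP low replicate 3 (0.0794) was left out, and after removal of the GC and length trend its log2 fold change was -0.02 ± 0.06 (adjusted p = 0.89). In PC3, KDM5A had means of 85.2 ± 1.4 CPM (GFP high) and 75.5 ± 6.8 CPM (GFP low), without overlap of the libraries (0.18 ± 0.10, limma adjusted p = 0.319).

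KDM5B (chromosome 1, 202724495 to 202809470), a demethylase often high in tumours, had fold changes of opposite sign in the 2 lines. In DU145 its libraries held 42.0, 54.1 and 45.7 CPM (GFP high) and 35.7, 38.5 and 38.2 CPM (GFP low), a log2 fold change of 0.33 ± 0.14 (limma adjusted p = 0.0957). In PC3 they held 15.04, 16.4 and 21.2 CPM (GFP high) and 23.4, 25.8 and 20.04 CPM (GFP low), a log2 fold change of -0.41 ± 0.14 (limma adjusted p = 0.0971). The DU145 groups did not overlap, the PC3 groups did, and neither difference passed by itself. Without PC3 GFP high replicate 3, which was the highest of its group, the PC3 difference was -0.55 (adjusted p = 0.0337). The difference between the 2 sort effects was 0.74 ± 0.20 (limma adjusted p = 0.0271) and passed in 14 of 26 alternatives, with adjusted p-values from 0.000505 to 0.133. It did not pass without DU145 GFP high replicate 2 (0.0738), DU145 GFP low replicate 1 (0.0688) or 3 (0.0565), PC3 GFP high replicate 1 (0.0708) or 2 (0.0687), or PC3 GFP low replicate 1 (0.0625). Nor did it pass with equal medians (0.0628), by quantile normalization (0.05745) or with the GC and length trend removed (0.133). With that trend removed, KDM5B had 0.003 ± 0.158 in DU145 and -0.48 ± 0.16 in PC3.

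Of the 3 KDM4 genes, whose products act on H3K9 and H3K36, KDM4A, chosen for its PC3 value, and KDM4B had the lowest PC3 fold changes among the members, while KDM4C had 0.07. KDM4A (ENSG00000066135, chromosome 1, 43650158 to 43705515, plus strand) measured 110, 122 and 117 CPM in PC3 GFP high and 261, 273 and 240 CPM in PC3 GFP low. The groups did not overlap, and the level in GFP high was 2.21-fold lower (log2 fold change -1.15, from -1.20 to -1.10 over the 27 alternatives; 7364 against 13395 estimated counts). In DU145, KDM4A lay between 88.3 and 97.3 CPM in all 6 libraries (-0.03 ± 0.07, limma adjusted p = 0.792). The antisense gene KDM4A-AS1 overlaps KDM4A in the annotation, and no source used here says whether the libraries keep strand. It had 86 estimated counts in PC3 GFP high and 93 in PC3 GFP low, far fewer than KDM4A itself.

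KDM4B (chromosome 19, 4969113 to 5153595), which was not chosen for its values in PC3, fell there as well. Its level was 17.9, 16.4 and 18.4 CPM in PC3 GFP high and 35.8, 37.1 and 31.9 CPM in PC3 GFP low. The groups did not overlap, and KDM4B was 1.99-fold lower in GFP high (limma, log2 fold change -0.99 ± 0.11, adjusted p = 7.23e-05). This held in all 27 alternatives, with estimates from -1.06 to -0.89 and a highest adjusted p of 0.00301. In DU145, KDM4B measured 31.9, 36.2 and 35.7 CPM (GFP high) and 33.3, 35.99 and 41.8 CPM (GFP low), a log2 fold change of -0.09 ± 0.11 (limma adjusted p = 0.536). The PC3 GFP low libraries lay within or next to the DU145 range and those of PC3 GFP high below it. The difference between the sort effects was 0.90 ± 0.16 (limma adjusted p = 0.00252) and passed in all 26 alternatives (highest adjusted p = 0.0172). KDM4C (chromosome 9, 6720863 to 7175648), the third KDM4 gene, had means of 12.5 ± 1.0 CPM (GFP high) and 11.95 ± 1.63 CPM (GFP low) in PC3 (0.07 ± 0.17, limma adjusted p = 0.854). In DU145 its means were 12.97 ± 2.57 and 10.48 ± 0.29 CPM (0.29 ± 0.17, limma adjusted p = 0.197), with an adjusted p of 0.0278 when DU145 GFP high replicate 3 was left out. Its counts were whole numbers in 7 of the 12 libraries.

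KDM4A and KDM4B were compared in the 250 bases before their RefSeq start sites (GRCh38.p14). The sequences are shown because both genes were lower in PC3 GFP high; capitals mark CCAAT or its reverse complement ATTGG, a motif picked after the sequences had been read.
KDM4A, chr1:43649899-43650148, plus strand: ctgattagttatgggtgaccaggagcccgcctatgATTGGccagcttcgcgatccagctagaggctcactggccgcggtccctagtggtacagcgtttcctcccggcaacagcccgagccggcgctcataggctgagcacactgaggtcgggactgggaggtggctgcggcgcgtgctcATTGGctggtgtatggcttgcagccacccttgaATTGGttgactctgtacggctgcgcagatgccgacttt
KDM4B, chr19:4968863-4969112, plus strand: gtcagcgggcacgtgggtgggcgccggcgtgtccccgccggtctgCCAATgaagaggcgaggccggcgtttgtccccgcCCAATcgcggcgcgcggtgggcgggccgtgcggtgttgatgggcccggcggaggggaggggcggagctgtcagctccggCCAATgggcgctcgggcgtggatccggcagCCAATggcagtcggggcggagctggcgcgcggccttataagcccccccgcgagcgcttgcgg

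The KDM4A window held 3 matches, all ATTGG, at 215, 71 and 38 bases before the start. The KDM4B window held 4, all CCAAT, at 205, 171, 92 and 62 bases before it. None of the other 8 members had a match on either strand in its window (KDM6B has 2 windows). Over all 35116 windows of this length, 32.01% held at least 1 match and 2.93% at least 3. Across the table, 22 of the 535 tested genes with at least 3 matches fell in PC3 (4.11%), against 5.15% of the 9138 with fewer, and their median log2 fold change was -0.00 against -0.02. CTTTGAT, a form of the site bound by TCF and LEF factors, was searched on both strands too and was found in 0 of the 11 windows of the members and in 2.26% of all windows. GGGCGG, the core of the GC box, was the third motif searched; it was found in 8 of the 10 members (KDM4A and KDM4C had no match) and in 42.6% of all windows. A match is a run of letters and no evidence of binding, and the absence of a match concerns these windows only.

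KDM6B (chromosome 17, 7839904 to 7854796), an H3K27 demethylase gene induced by inflammatory signals in many cells, did not pass in either line. In DU145 its libraries held 37.05, 42.1 and 35.9 CPM (GFP high) and 45.7, 42.6 and 47.2 CPM (GFP low), a log2 fold change of -0.24 ± 0.13 (limma adjusted p = 0.174). The DU145 groups were close but did not overlap. In PC3 they overlapped, with 23.9 to 35.8 CPM for GFP high and 31.8 to 33.4 CPM for GFP low (-0.20 ± 0.13, limma adjusted p = 0.414).

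Counted together, 1 of the 9 members other than KMT2C passed in DU145, and it rose; of all 12527 tested genes 27.1% passed there, 13.1% higher and 13.9% lower. In PC3, 1 of the 9 members other than KDM4A rose and 1 fell, where 9.44% of all tested genes passed, 4.17% higher and 5.27% lower. For the difference between the sort effects, 3 of 8 members passed (KMT2C and KDM4A not counted), 2 with a higher and 1 with a lower effect in DU145, where 15.9% of all tested genes passed, 7.06% higher and 8.82% lower. The median log2 fold change of the 9 members not chosen for the comparison was 0.03 in DU145 and 0.16 in PC3, beside -0.01 and -0.02 over all tested genes; with the chosen member included it was 0.15 and 0.12.

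**Figure D3:**
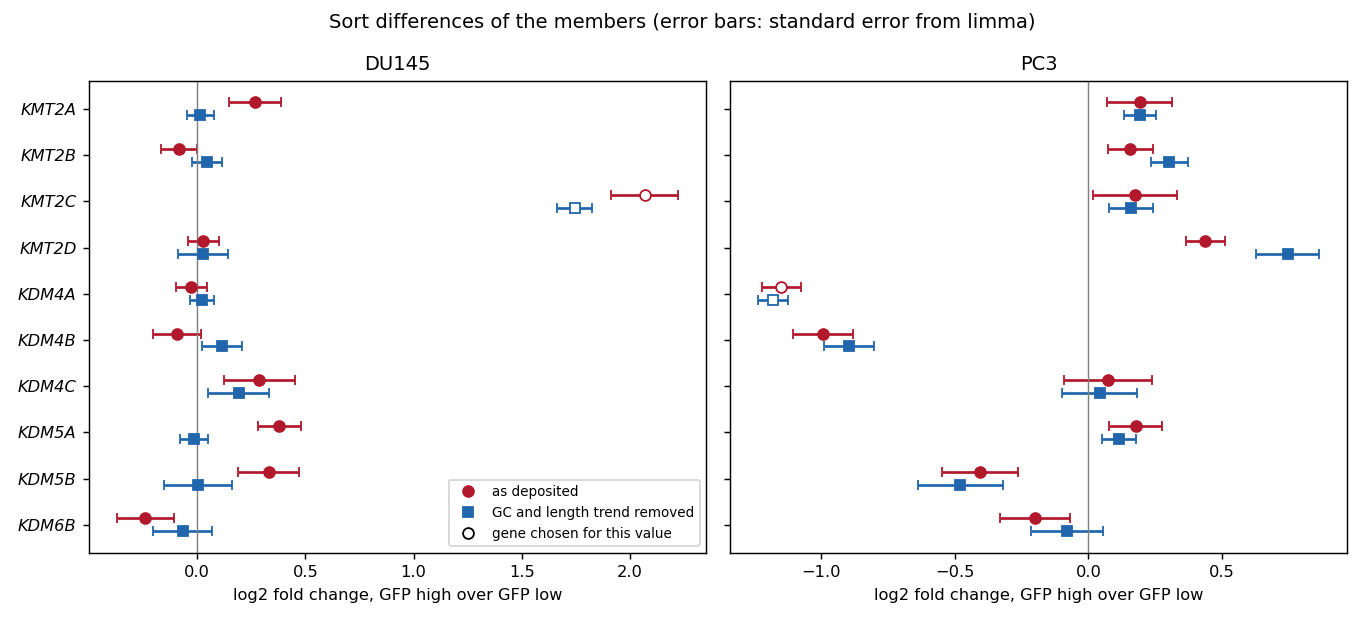
Log2 fold changes of GFP high over GFP low in DU145 (left) and PC3 (right), from the deposited values (circles) and after removal of the GC and length trend (squares); error bars are standard errors, and open symbols mark the gene chosen for that value. KDM4B at -0.99 and KMT2D at 0.44 in PC3 keep their sides in both analyses, while KDM5A in DU145 moves from 0.38 to -0.02.

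The sort differences in DU145 ran with GC content across the whole table. With the tested genes split into 5 equal groups by GC content, the group of 40.9 to 45.7% had a median log2 fold change of 0.20 in DU145, and the group above 58.4% one of -0.26. KDM5A, KDM5B and KMT2C, at 42.9%, 44.4% and 45.0% GC, belong to the former and were all positive in DU145, KMT2C having been chosen for that value. KMT2B, KDM6B, KDM4B and KMT2D, at 63.5%, 62.4%, 61.2% and 59.1%, belong to the latter, and KMT2D, at 0.03, was the only positive value among them. The group of 45.7 to 51.8% GC had a median of -0.05 in DU145. Its members KMT2A (0.27) and KDM4C (0.29) had the opposite sign to that median, and KDM4A had -0.03. With the trend in GC content and length removed, 0 of the 9 members other than KMT2C passed in DU145 (limma, and 0 at an unadjusted p under 0.05). Of all tested genes, 2648 of 12510 passed there. The member value farthest from 0 was 0.19 for KDM4C, while KMT2C stayed at 1.74. In PC3 the group medians lay between -0.11 and 0.02, and removing the trend raised the number of members that passed to 5 of 9. The calls over all genes rose as well, from 1182 of 12527 to 2403 of 12510. KMT2A (0.19, adjusted p = 0.0371) and KMT2B (0.30, adjusted p = 0.00658) then rose beside KMT2D (0.75, adjusted p = 0.000434), and KDM5B (-0.48, adjusted p = 0.0468) fell beside KDM4B (-0.89, adjusted p = 9.39e-06). KMT2D, KMT2C and KMT2A lie at the edge of the fitted trend, with transcripts longer than 99.8%, 99.6% and 99.6% of those of tested genes.

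**Figure D4:**
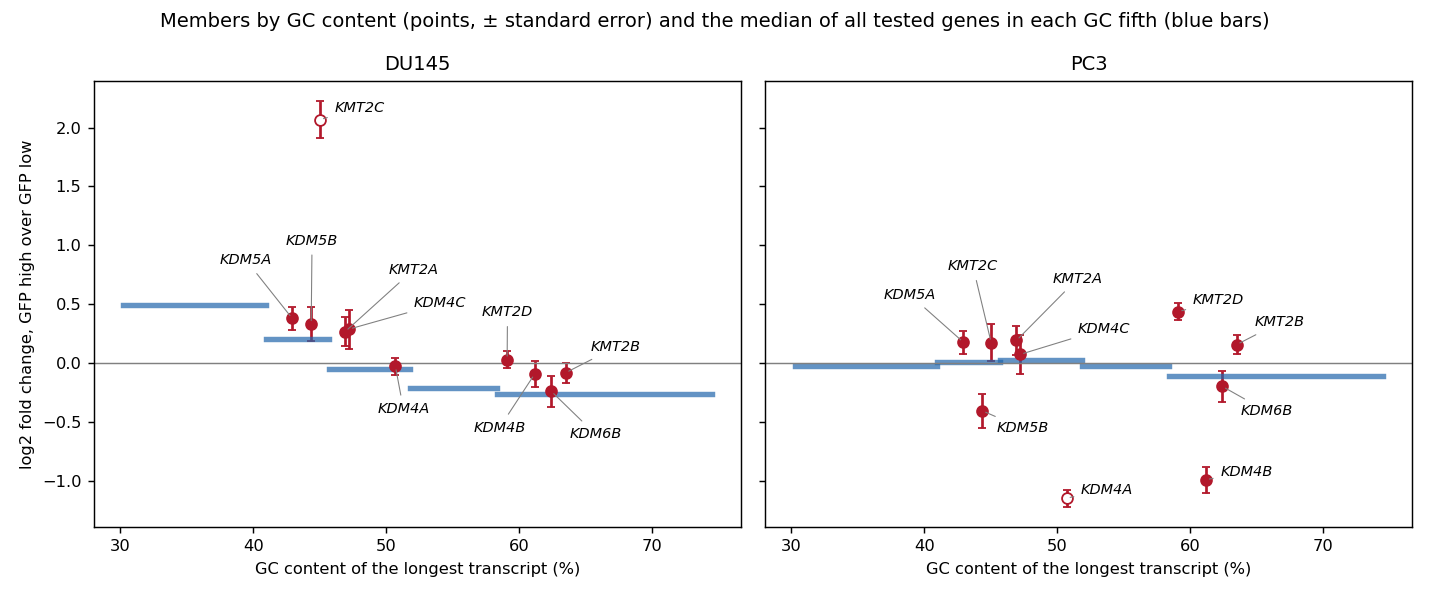
Log2 fold change of GFP high over GFP low against the GC content of the longest annotated transcript (%), for the members (points, with standard errors; open where chosen for that value) and as the median of all tested genes in 5 equal groups by GC content (blue bars). In DU145 the bars fall from 0.50 to -0.26 with rising GC content, with KMT2C far above them; in PC3, KDM4A and KDM4B lie far below the bars and KMT2D above.

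Between the lines, most members differed, as did 77.5% of all tested genes (38.3% higher and 39.2% lower in DU145). With each line taken as the mean of its sorts, 5 of the 8 members other than KMT2C and KDM4A were higher in DU145, 1 was lower and 2 did not pass. KDM5B was 2.10-fold higher in DU145 (35.7 to 54.1 CPM, median 40.3, against 15.04 to 25.8 CPM, median 20.6, in PC3; log2 difference 1.07 ± 0.10, limma adjusted p = 3.77e-07). KMT2B was 1.95-fold higher (141 to 174 CPM, median 152, against 72.1 to 86.9 CPM, median 79.3; limma adjusted p = 4.95e-09). These ranges did not overlap, nor did those of KMT2D (386 to 433 CPM against 214 to 321 CPM, 1.54-fold, limma adjusted p = 1.02e-07) and KDM6B (35.9 to 47.2 CPM against 23.9 to 35.8 CPM, 1.37-fold, limma adjusted p = 0.000473). KDM4B was higher in DU145 (0.53 ± 0.08, limma adjusted p = 2.97e-05) with overlapping ranges. KDM5A was lower in DU145 (-0.24 ± 0.07, limma adjusted p = 0.0061), with overlap. KDM4A and KMT2C, whose means hold the libraries of the differences they were chosen for, are given without a test. The log2 difference was -0.91 for KDM4A, without overlap of the libraries, and -0.51 for KMT2C, with overlap. For KMT2C the GFP low libraries of DU145 all lay below those of PC3. The mean of DU145 GFP high (147 ± 28 CPM) was above that of PC3 GFP high (108 ± 13 CPM), with overlapping libraries. Setting all library medians equal moved the median difference of all genes by 0.14, and KDM5A then lost its call (adjusted p = 0.177). KMT2A (-0.17 ± 0.09, limma adjusted p = 0.0854) and KDM4C (-0.07 ± 0.12, limma adjusted p = 0.58) did not pass, and KMT2A had an adjusted p of 0.0179 without PC3 GFP low replicate 2.

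The partners of the KMT2 proteins and the other enzymes of both classes were counted from 3 lists. Their counts stand beside the 27.1% of all tested genes that passed in DU145 (13.1% higher, 13.9% lower) and the 9.44% in PC3 (4.17% higher, 5.27% lower). Of 20 genes listed for KMT2 complex subunits, 5 rose and 3 fell in DU145 and 1 rose in PC3. The list is wider than the complexes of the 4 KMT2 members. It also holds SETD1A, SETD1B and CXXC1 of the related SETD1 complexes, and KMT2E and TASP1. WDR82, a subunit of the related SETD1 complexes, rose in DU145 (log2 fold change 0.59 ± 0.08, limma adjusted p = 0.000445) in all 27 alternatives. KDM6A, the H3K27 demethylase within the KMT2C and KMT2D complexes, rose (0.84 ± 0.21, limma adjusted p = 0.0159). WDR5, a core subunit of all these complexes, fell in DU145 (-0.36 ± 0.08, limma adjusted p = 0.00777), as did MEN1 (-0.31 ± 0.09, limma adjusted p = 0.0202), which encodes menin, the partner of KMT2A and KMT2B. HCFC1, a cofactor of the KMT2A complex, rose in PC3 (0.31 ± 0.07, limma adjusted p = 0.00985; 0.059 without PC3 GFP high replicate 1 and 0.051 without PC3 GFP low replicate 1). In DU145 it fell (-0.22 ± 0.07, limma adjusted p = 0.0311), a call that held in 16 of 27 alternatives. HCFC1 did not pass in DU145 after quantile normalization (0.01, adjusted p = 0.949), with the GC and length trend removed (-0.10, 0.156), without an expression minimum (0.0505), by eBayes without trend (0.061) or with each line fitted alone (0.0667). It did not pass either without DU145 GFP high replicate 1 (0.115) or 2 (0.0889) or GFP low replicate 1 (0.098) or 3 (0.122). The difference between the sort effects on HCFC1 was -0.53 ± 0.09 (limma adjusted p = 0.00293) and passed in all 26 alternatives, and that on WDR5 was -0.52 ± 0.11 (limma adjusted p = 0.00682), passing in 25 of 26. The median of the subunit list was 0.04 in DU145 and 0.15 in PC3.

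Of 18 other demethylase genes, 17 were tested; 3 rose and 1 fell in DU145, and 0 passed in PC3 (limma; 2 at an unadjusted p under 0.05, and 0 by voom). KDM3A, an H3K9 demethylase, rose in DU145 (0.53 ± 0.13, limma adjusted p = 0.013) and had a log2 fold change of -0.36 ± 0.13 in PC3 (limma adjusted p = 0.105), a difference between lines of 0.88 ± 0.18 (limma adjusted p = 0.0063). JMJD1C, its relative, rose in DU145 (0.86 ± 0.26, limma adjusted p = 0.0318), and C14orf169, which encodes the nucleolar oxygenase RIOX1, fell (-0.39 ± 0.09, limma adjusted p = 0.0104). KDM6A, described above, is on this list as well. Of 20 other histone methyltransferase genes, 6 rose and 1 fell in DU145 and 1 rose in PC3. The H3K36 methyltransferase genes NSD1 (0.66 ± 0.11, limma adjusted p = 0.00176) and ASH1L (0.67 ± 0.18, limma adjusted p = 0.0186) rose in DU145. So did WHSC1L1, which encodes NSD3 (0.60 ± 0.17, limma adjusted p = 0.0227), and KMT5B, an H4K20 methyltransferase gene (0.62 ± 0.17, limma adjusted p = 0.0232). In PC3 it was WHSC1, which encodes NSD2 (0.26 ± 0.07, limma adjusted p = 0.0364), whose call held in 15 of 27 alternatives and in none that left out a library of PC3 GFP high.

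These list counts moved with the libraries and the GC trend. The DU145 calls of KDM6A, MEN1, KDM3A, JMJD1C, ASH1L, WHSC1L1 and KMT5B were each lost when DU145 GFP high replicate 1, GFP high replicate 2 or GFP low replicate 3 was left out (adjusted p from 0.0538 for KDM3A to 0.147 for JMJD1C). Without DU145 GFP low replicate 1, KDM6A (limma adjusted p = 0.0562), JMJD1C (0.0646), ASH1L (0.0517), WHSC1L1 (0.0618) and KMT5B (0.0545) lost theirs too. C14orf169 no longer passed without DU145 GFP high replicate 1 (0.0503) or GFP low replicate 3 (0.0513). WDR82, WDR5 and NSD1 passed in DU145 whichever single library was left out. Without DU145 GFP high replicates 1 and 2, 1 library was left in that group, and log2 fold changes alone are given. In DU145 they were 0.41 for NSD1, 0.31 for ASH1L, 0.29 for WHSC1L1, 0.42 for KMT5B and 0.67 for KDM6A. JMJD1C had 0.37, KDM3A 0.29, WDR5 -0.27, C14orf169 -0.26 and MEN1 -0.18. Each of these values was smaller in size than with all libraries. With PC3 GFP low replicate 1 as the only library of its group, the PC3 values were 0.37 for HCFC1 and 0.25 for WHSC1. With the GC and length trend removed, 4 subunit genes rose in DU145 and 8 in PC3 with 0 falling, the other demethylase genes had 2 falls and 0 rises in each line, and the other methyltransferase genes had 2 rises and 1 fall in DU145 and 1 rise in PC3. KDM6A (adjusted p = 0.0775), WDR5 (0.0517), MEN1 (0.367), KDM3A (0.299), JMJD1C (0.0904), C14orf169 (0.194), WHSC1L1 (0.157) and KMT5B (0.384) then lost their DU145 calls, and WDR82, NSD1 and ASH1L passed.

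The genes next to KMT2C and KDM4A were read in the same fits. Among the 5 nearest tested genes on each side of KMT2C, spanning 3.77 Mb of chromosome 7, 0 passed in DU145 (limma, with 3 at an unadjusted p under 0.05 and 0 by voom). Over all tested genes, 27.1% passed there. The log2 fold changes around KMT2C ran from -0.43 for ACTR3B to 0.65 for the noncoding gene PAXIP1-AS2. Its direct neighbours GALNT11 and XRCC2 had 0.24 ± 0.10 and 0.29 ± 0.21, beside 2.07 for KMT2C. Among the 10 neighbours of KDM4A, spanning 0.615 Mb of chromosome 1, 0 passed in PC3 (limma, with 2 at an unadjusted p under 0.05 and 0 by voom), where 9.44% of all tested genes passed. Their values ran from -0.35 for KDM4A-AS1 to 0.17 for PTPRF, beside -1.15 for KDM4A. In DU145, where KDM4A itself had -0.03, 4 of these 10 neighbours fell, beside 13.9% of all tested genes, among them PTPRF (-0.29 ± 0.07, limma adjusted p = 0.0128) and IPO13 (-0.41 ± 0.09, limma adjusted p = 0.00925). With the GC and length trend removed, 1 neighbour of KMT2C passed in DU145, and 2 neighbours of KDM4A passed in each line. Of all 12510 genes in that fit, 2648 passed in DU145 and 2403 in PC3. Leaving out DU145 GFP high replicates 1 and 2 leaves 1 library in that group. Whether the 4 falls near KDM4A depend on those replicates cannot be told from it.

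**Figure D5:**
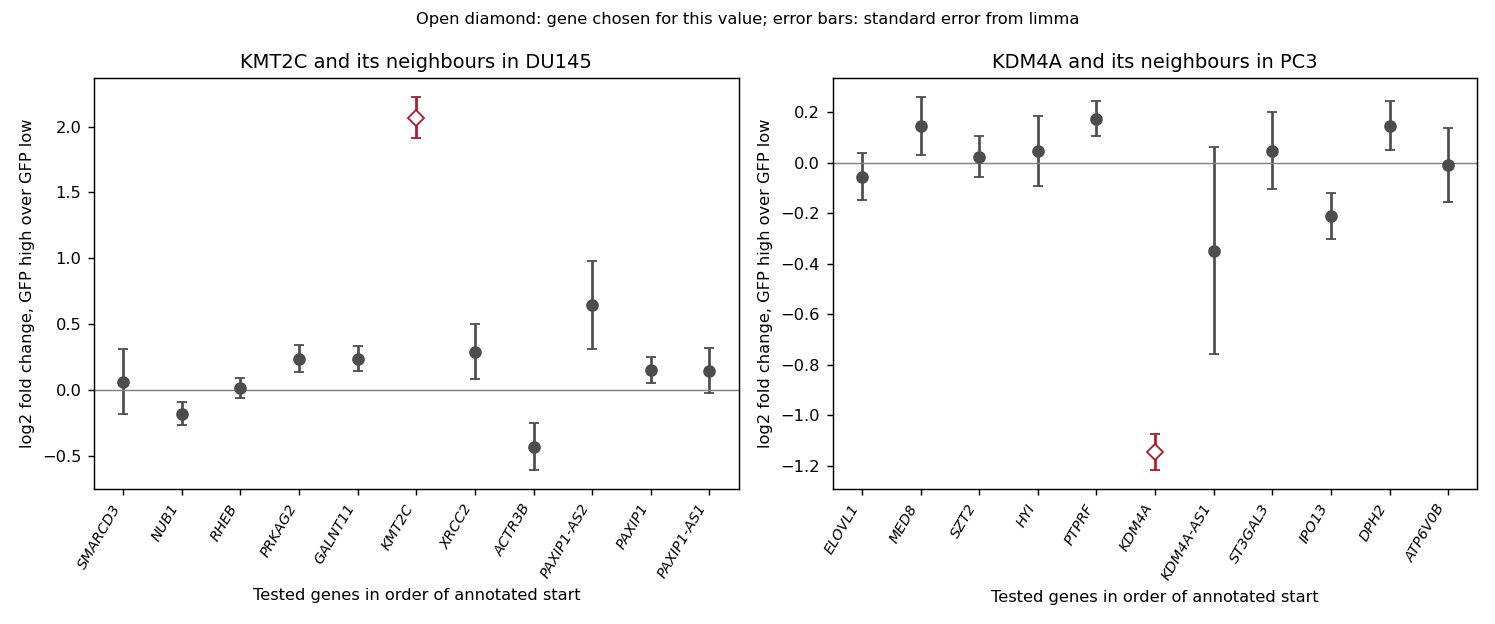
Log2 fold change of GFP high over GFP low for KMT2C and its 10 nearest tested genes in DU145 (left) and for KDM4A and its 10 in PC3 (right), in order of annotated start along the chromosome; error bars are standard errors and the open diamond is the chosen gene. The neighbours range from -0.43 to 0.65 on the left and from -0.35 to 0.17 on the right, apart from KMT2C at 2.07 and KDM4A at -1.15.

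The genes most like KMT2C and KDM4A over the 12 libraries were sought by Pearson's r of the log2 level among 7600 genes with a mean log2 level of at least 4. For KMT2C they were ATP2B1, a calcium pump gene of the plasma membrane (r = 0.98), the desmosomal cadherin gene DSG2 (r = 0.98) and the cell cycle repressor gene E2F7 (r = 0.96). The ATP2B1 level was 41.7 ± 7.6 CPM in DU145 GFP high and 6.93 ± 1.49 CPM in DU145 GFP low. In PC3 it was 26.4 ± 4.0 CPM (GFP high) and 27.0 ± 5.4 CPM (GFP low), between the DU145 groups. E2F7 moved less, from 31.1 ± 1.2 CPM in DU145 GFP low to 45.7 ± 5.3 CPM in DU145 GFP high (log2 fold change 0.55, beside 2.60 for ATP2B1 and 1.48 for DSG2). For KDM4A they were TMSB4X, which encodes thymosin beta 4 (r = 0.98), the mitophagy receptor gene BNIP3 (r = 0.98) and C16orf45 (r = 0.975). TMSB4X had 608 ± 30 CPM in PC3 GFP low and means of 265 to 286 CPM in the other groups. The PC3 log2 fold change was -1.09 for TMSB4X, -0.96 for C16orf45 and -0.48 for BNIP3. These genes were picked for their likeness over the same 12 libraries, so sharing the pattern of group means follows from the choice.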

How the data were processed

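Per the labels, the deposited values are log2 normalized counts; STAR and DESeq2 appear, with no version, in the submitters' processing notes, while the genome build and counter are not named there. The lowest value of each of the 12 columns was read as 0 counts with an offset of 0.5, so the deposited log2 values were taken as log2 CPM; undoing them gave estimated counts, 86.9% of them whole within 0.01 in the median library. The 12527 genes with at least 1 CPM in at least 3 libraries were fitted with limma 3.58.1 in R 4.3.3 (4 group means, eBayes with trend, two-sided, Benjamini-Hochberg over all tested genes, threshold 0.05). Contrasts were GFP high against low in each line, their difference, and DU145 against PC3; errors of log2 fold changes are SE. Libraries of a group differed by a chi-square of 5.48 to 39.9 per gene, where sampling alone gives about 1. Positions, lengths and GC content are from GENCODE 29 (18901 genes matched), promoters from RefSeq (10 members matched by symbol). The fit was also run on simulated data with independent noise in each library. These held no GC trend and no deviating library, so that run does not bear on either. The members and lists were chosen with earlier results of these data known. Named genes are the members, up to 4 called genes per list and line with the smallest p, the 3 most similar genes and the 5 neighbours on each side of KMT2C and KDM4A, and LEF1 and AXIN2; others are named for the reason given beside them. Alternatives were no minimum or 16 CPM, equal medians, quantile normalization, an offset of 8 counts, eBayes without trend or robust, arrayWeights, voom on estimated counts, each line alone, the replicate block, removal of the GC and length trend (loess, span 0.4) with and without that block, and leaving out libraries. The arrayWeights method was changed to its gene-by-gene form after the default had not converged and its counts had been seen.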

Additional observations from a re-analysis of the deposited data

Results flagged for a closer look

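For 3 members the sort effect differed between the lines by the test of the difference itself (limma, DU145 minus PC3 on the log2 scale): KDM4B at 0.90 (adjusted p = 0.00252), KDM5B at 0.74 (adjusted p = 0.0271) and KMT2D at -0.41 (adjusted p = 0.0187). KDM4B fell in PC3 and KMT2D rose there, each with a DU145 value within 0.10 of 0, while KDM5B had opposite signs in the lines without passing in either. With the GC and length trend removed, the DU145 value of KDM5B was 0.003 and its difference no longer passed (limma adjusted p = 0.133). The KDM4B difference held in 26 of 26 alternatives, that of KMT2D in 24 and that of KDM5B in 14.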

How the results depend on the processing

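Members past the threshold numbered 1 in DU145, 2 in PC3 and 3 for the difference. Between the lines, of the 8 members other than KMT2C and KDM4A, 5 were higher and 1 lower in DU145. With arrayWeights (fitted gene by gene, a choice made after seeing that the default did not converge) 4 members passed in DU145, 4 in PC3 and 6 for the difference. By quantile normalization, 1 passed for the difference. With the GC and length trend removed, with or without the replicate block, 0 members passed in DU145 and 5 in PC3. Leaving out single libraries gave 0 to 3 in DU145 (0 without high 1, 3 without high 3), 2 to 3 in PC3 and 1 to 4 for the difference. Over all genes, the calls were 3389 in DU145 (2252 by quantile normalization, 7060 with arrayWeights, 896 to 5597 without single libraries, 170 without high 1 and 2), 1182 in PC3 (3768 with arrayWeights, 2403 and 2612 with the trend removed, without and with the block, 660 to 1492 without single libraries, 410 without low 2 and 3) and 1990 for the difference (6411, 3005 and 3500 in the same order, 1145 to 3661, 649 without DU145 high 1 and 2 and 1188 without PC3 low 2 and 3). Same-numbered libraries correlated in their deviations from the group means at -0.02, 0.09 and 0.21 in DU145 and 0.06, 0.20 and 0.14 in PC3, so the numbers were not taken to pair them; each PC3 library, but not each DU145 library, correlated best with its own number. The replicate block gave 2 members in DU145, KMT2A joining at an adjusted p of 0.0126, and 3321 calls for the difference.

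The sign changed for these log2 values; values with the trend removed are the same with and without the block. In DU145, KMT2B was 0.0603 by quantile normalization, 0.0456 with the trend removed and 0.0629 without high 1 and 2. KMT2D was -0.0649 with equal medians, -0.0551 without high 1 and 2 and -0.0126 to 0.0702 without single libraries. KDM4A was 0.0726 by quantile normalization, 0.0229 with the trend removed, 0.0050 without high 1 and 2 and -0.0581 to 0.0065 without single libraries. KDM4B was 0.1158 and KDM5A -0.0155 with the trend removed, and KDM4C -0.0598 without high 1 and 2. In PC3, KDM4C was -0.0176 with arrayWeights, -0.0470 without low 2 and 3 and -0.0458 to 0.1346 without single libraries. For the difference, KMT2A was -0.0551 with equal medians, -0.1776 with the trend removed, -0.1807 without DU145 high 1 and 2 and -0.0201 to 0.2039 without single libraries. KDM4C was -0.0204 by quantile normalization and -0.1330 without DU145 high 1 and 2, and KDM5A -0.1294 with the trend removed. KDM6B was 0.0190 with arrayWeights, 0.0120 with the trend removed and -0.1628 to 0.1292 without single libraries. Between the lines, KDM4C was 0.0719 with equal medians, 0.1254 by quantile normalization and -0.1324 to 0.0139 without single libraries. The cause was not tested. Depth limits KDM4C most, with 493 to 796 estimated counts per group.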

Other observations

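The wider lists also differed between the lines. Of the 20 genes of the wider subunit list, 11 were higher and 7 lower in DU145 than in PC3 (limma, adjusted p under 0.05), beside 77.5% of all tested genes that passed in either direction. MEN1 (log2 difference 0.77 ± 0.06, limma adjusted p = 5.99e-08) and WDR82 (0.76 ± 0.05, limma adjusted p = 2.24e-08) were higher in DU145. Of the 17 other demethylase genes tested, 10 were higher and 6 lower in DU145, and JMJD1C stood at -1.89 ± 0.19 (limma adjusted p = 6.17e-07). Of the 20 other methyltransferase genes, 9 were higher and 10 lower.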
